A study of Mus musculus with 12 samples.

Results

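The genes for a pair of lysozymes, *Lyz1* and *Lyz2*, and for a pair of secreted ribonucleases, *Rnase4* and *Ang*, were followed in sorted microglia. These 4 genes, of 55401 counted, were selected on the measured values, because the lysozymes lay higher and the ribonucleases lower in microglia of HDAC3-miKO mice than in microglia of WT mice. The genotype differences of these 4 genes are therefore given as a description and without a test. Only the differences between tFCI and Sham were tested, and those share their libraries with the comparisons that chose the genes. All 4 genes passed the filter on low counts, *Lyz1* through its level in the miKO groups alone.

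Both genotypes carried Hdac3 loxp/loxp. WT mice had both intact *Cx3cr1* alleles (Cx3cr1 wt/wt), whereas in miKO mice 1 allele was replaced by the tamoxifen-inducible recombinase (Cx3cr1 CreER/wt), so that loss of HDAC3 and loss of a *Cx3cr1* allele cannot be told apart in these groups. All mice were male. The deletion was induced with tamoxifen (100 mg/kg on 5 consecutive days, at 6 to 8 weeks of age), and surgery followed at least a month later. Whether WT mice received tamoxifen too is not given in the sources used here. WT-tFCI and miKO-tFCI underwent transient focal cerebral ischemia (tFCI, occlusion of the left middle cerebral artery for 60 min), whereas WT-Sham and miKO-Sham had the carotid artery exposed but not occluded. CD45int CD11b+ microglia were sorted on day 3 with a panel that also held Ly6G and CD11c antibodies, and each of the 3 biological replicates per group pooled 3 to 4 hemispheres. The p values below measure the spread between such pools.

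Counts on genes were 7697864 to 9452222 per library, and 16451 genes entered the tests. *Hdac3*, the targeted gene, was at 41.8 ± 6.02 CPM (TMM-scaled counts relative to library size, per 1000000) in WT-Sham, 23.9 ± 2.64 in miKO-Sham, 50.2 ± 5.55 in WT-tFCI and 30.7 ± 4.70 in miKO-tFCI (SD, n = 3). The genotypes did not overlap within either surgery, but miKO-tFCI replicate 1 (36.0 CPM) lay above WT-Sham replicate 1 (35.0 CPM). Its log2 fold change was -0.81 in miKO-Sham (adjusted p = 0.00281) and -0.71 in miKO-tFCI (adjusted p = 0.0127), by the quasi-likelihood test of edgeR, adjusted after Benjamini and Hochberg. Replicate 1 of each group was labelled batch 1 and replicates 2 and 3 batch 2. Replicates 1 and 2 of miKO-Sham need caution. Their deposited tables are named for 1 and the same sample identifier, although the labels put them in different batches, and no other pair of the same group had counts as close (chi-square per degree of freedom 2.89, other pairs 4.05 to 102). They differed by more than counting noise, as separate preparations of 1 sample also can, and whether they come from 1 sample was not tested. They were kept as the 2 libraries of the labels, and results of the 4 genes on miKO-Sham are given also with both as 1 sample (n = 2). miKO-tFCI replicate 1 lay farthest from its group (72.6 and 102).

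Lysozymes cleave the peptidoglycan of bacterial cell walls. Mice have a pair of such genes from a duplication. *Lyz2* (lysozyme M) is the form of macrophages, monocytes and granulocytes, and *Lyz1* (lysozyme P) that of the Paneth cells of the small intestine. RNASE4 and angiogenin (*Ang*) are small secreted enzymes of the RNase A family, which also holds antimicrobial members. Angiogenin promotes vessel growth and cuts transfer RNA in stressed cells, and it is held in check by the cytosolic ribonuclease inhibitor RNH1. HDAC3 removes acetyl groups from histones as part of corepressor complexes.

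In GENCODE M21 (GRCm38), *Lyz2* (ENSMUSG00000069516.8) lies on the minus strand at chr10:117277331-117282321 and *Lyz1* (ENSMUSG00000069515.6) on the same strand at chr10:117287797-117292868, with 5475 bases between them. *Rnase4* (ENSMUSG00000021876.15, chr14:51091077-51106151) and *Ang* (ENSMUSG00000072115.11, chr14:51091150-51102009) lie on the plus strand, and *Ang* starts 73 bases after *Rnase4*. Both overlap and share 219 exon bases, where a read cannot be given to one gene, and levels per length use the other exon bases only. The lysozymes are near-identical copies, which bears on whether reads could be assigned to one of them. Their coding sequences of 447 bases differ at 22 (95.1% identity). The first 150 coding bases are shown because they hold 14 of these differences, which are in capitals (GENCODE transcripts, 5′ to 3′).
Lyz1: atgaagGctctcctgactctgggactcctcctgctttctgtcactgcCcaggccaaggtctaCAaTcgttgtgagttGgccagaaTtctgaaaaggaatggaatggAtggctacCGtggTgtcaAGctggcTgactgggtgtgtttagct
Lyz2: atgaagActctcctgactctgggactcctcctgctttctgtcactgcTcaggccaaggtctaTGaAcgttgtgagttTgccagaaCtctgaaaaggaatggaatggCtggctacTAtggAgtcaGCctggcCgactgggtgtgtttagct
Over the whole transcripts the copies were identical at 96.0% of 1262 aligned positions. None of the 1114 windows of 150 bases, the read length, was free of a difference (0 windows), and a window held 1 to 15 of them (median 6).

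The sequences before the transcription starts (RefSeq, GRCm38.p6) are shown because the genes of each pair moved together. *Rnase4* and *Ang* share the one printed, and RefSeq gives *Rnase4* a further start of its own 4923 bases downstream. Capitals mark AGGAAG, the core bound by PU.1 and other ETS factors, and TTGCNNAA, a C/EBP motif, on either strand. The *Lyz2* sequence is shorter because its annotated gene starts upstream of the RefSeq start.
Lyz2, chr10:117282322-117282522, minus strand: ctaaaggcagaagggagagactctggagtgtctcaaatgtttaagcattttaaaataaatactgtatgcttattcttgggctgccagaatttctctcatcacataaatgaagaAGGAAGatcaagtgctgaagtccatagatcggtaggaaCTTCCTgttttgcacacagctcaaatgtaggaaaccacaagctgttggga
Lyz1, chr10:117292869-117293118, minus strand: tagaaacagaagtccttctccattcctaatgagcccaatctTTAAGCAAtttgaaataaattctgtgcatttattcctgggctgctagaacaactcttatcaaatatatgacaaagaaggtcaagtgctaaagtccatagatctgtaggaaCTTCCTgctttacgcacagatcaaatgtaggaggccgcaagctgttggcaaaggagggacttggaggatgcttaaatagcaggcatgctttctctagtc
Rnase4 and Ang, chr14:51090827-51091076, plus strand: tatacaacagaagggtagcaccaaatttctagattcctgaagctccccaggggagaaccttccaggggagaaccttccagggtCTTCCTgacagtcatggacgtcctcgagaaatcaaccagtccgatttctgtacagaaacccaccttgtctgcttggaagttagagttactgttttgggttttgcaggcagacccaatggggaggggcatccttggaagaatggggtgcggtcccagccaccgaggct
The letters AGGAAG occurred at 2 places before *Lyz2*, and at 1 place each before *Lyz1* and before *Rnase4* and *Ang*. They occurred in 29.5% of 32851 promoters over 250 bases. TTGCNNAA occurred at 1 place before *Lyz1* and not in the other windows printed (9.6% of all promoters). The window before the further *Rnase4* start (chr14:51095750-51095999), which is not printed, held AGGAAG at 2 places and TTGCNNAA at 1 place. TGANTCA (AP-1), TATAAA and the ISRE motif of interferon-stimulated genes had no match in any of these windows (6.7%, 12.4% and 3.0% of all promoters). A match of letters is a description and not a binding site.

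*Lyz2* was among the most abundant RNAs of miKO microglia and far less abundant in WT microglia. It was at 664, 443 and 442 CPM in WT-Sham replicates 1 to 3, and at 9101, 8520.2 and 7063 CPM in miKO-Sham. After tFCI it was at 2010.3, 1493 and 1415 CPM in WT and at 6432, 9977 and 9563 CPM in miKO. Every miKO library was above every WT library, whereas miKO-Sham and miKO-tFCI overlapped. By rank of its counts among all genes of a library, *Lyz2* went from 156 to 242 in WT-Sham to 9 to 12 in miKO-Sham, and from 50 to 68 in WT-tFCI to 6 to 10 in miKO-tFCI. At its highest, in miKO-tFCI replicate 2, it took 0.969% of all counts on genes.

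**Figure D1:**
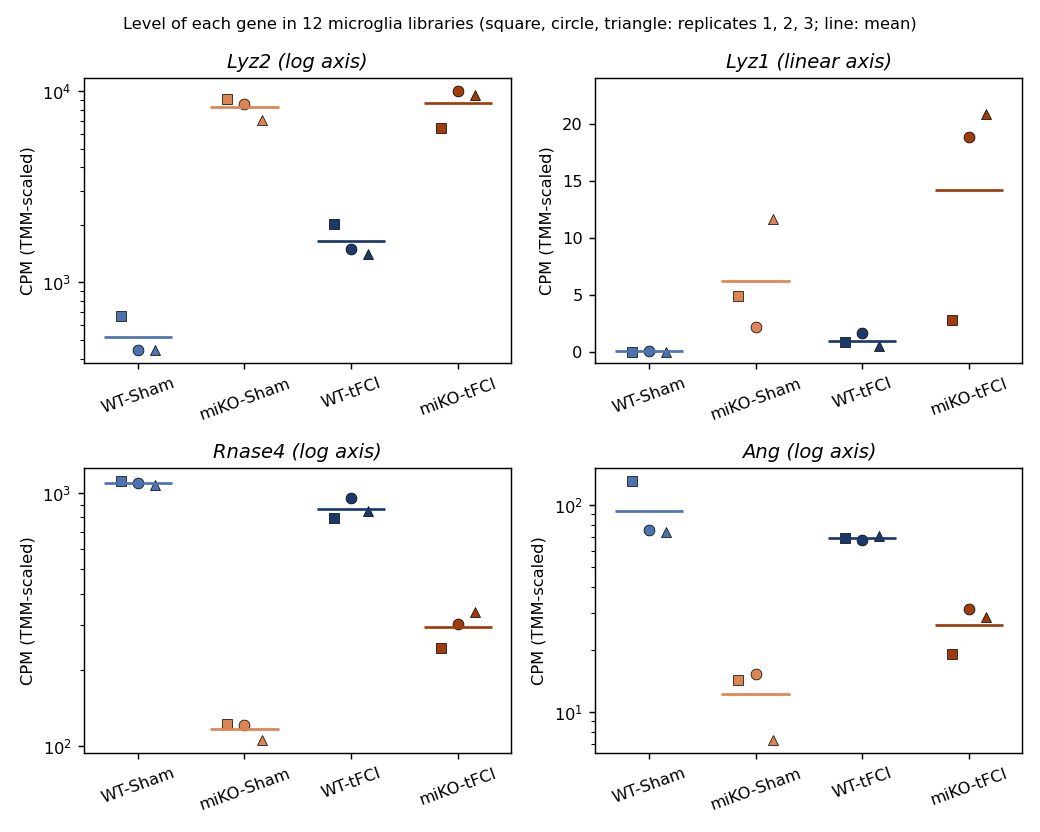
TMM-scaled CPM of the 4 genes in each of the 12 libraries, by group, with replicates 1, 2 and 3 as square, circle and triangle and the group mean as a line (log axes, linear for *Lyz1*). *Lyz2* lay at 442 to 664 CPM in WT-Sham and at 7063 to 9101 CPM in miKO-Sham, while *Rnase4* went the opposite way, from 1080.2 to 1112 CPM to between 105 and 122 CPM.

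In WT microglia *Lyz2* rose after tFCI, from 516 ± 128 to 1639.6 ± 323 CPM (SD, n = 3). Its log2 fold change was 1.67 (standard error 0.22, 95% interval 1.21 to 2.13, adjusted p = 3.25e-05, edgeR, Benjamini-Hochberg), and batches 1 and 2 gave 1.60 and 1.72. In miKO microglia it was at 8228 ± 1050.1 CPM after Sham and 8657 ± 1938 CPM after tFCI (SD, n = 3). The difference of 0.10 did not pass the threshold (standard error 0.21, 95% interval -0.35 to 0.54, adjusted p = 0.741, edgeR, Benjamini-Hochberg). Within batch 1 the difference was -0.50 and within batch 2 it was 0.33. Such values within batches, here and for the other genes, are differences of mean log2 CPM (prior count 2) and not edgeR fits. The genotype difference of *Lyz2*, which served to choose the gene, was 4.01 on the log2 scale without stroke (standard error 0.24, 16.1-fold) and 2.43 after tFCI (standard error 0.22, 5.39-fold). Within batches 1 and 2 it was 3.78 and 4.13 without stroke, and 1.68 and 2.75 after tFCI. With miKO-Sham replicates 1 and 2 as 1 sample, *Lyz2* in miKO-Sham was at 7937 ± 1236 CPM (SD, n = 2) and the log2 fold changes were 3.94 against WT-Sham and 0.17 for tFCI (adjusted p = 0.601, edgeR, Benjamini-Hochberg).

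*Lyz1* was nearly absent from WT-Sham and low in every group. It had 0, 1 and 0 counts in WT-Sham replicates 1 to 3 and 7, 14 and 4 counts in WT-tFCI. In miKO-Sham it had 35, 16 and 91 counts (4.86, 2.22 and 11.7 CPM), and in miKO-tFCI 27, 150 and 169 counts (2.79, 18.9 and 20.9 CPM). All miKO libraries lay above all WT libraries, and the miKO groups overlapped. Since WT-Sham held 1 count in all, a fitted fold change against it depends on the prior count, and ratios of summed counts with a 95% counting interval are given. The level in WT-tFCI was 26.7 times that in WT-Sham (4.38 to 1098). In miKO-Sham it was 173 times that in WT-Sham (30.5 to 6861), and in miKO-tFCI 13.6 times that in WT-tFCI (9.04 to 21.3). In edgeR, the rise after tFCI in WT passed the threshold (log2 fold change 4.36, standard error 1.33, adjusted p = 0.0177 with Benjamini-Hochberg adjustment). *Lyz1* entered this test only through its level in the miKO groups, and with only the WT groups in the fit it had no value. The rise did not pass the threshold without WT-Sham replicate 3 (3.65, adjusted p = 0.0769) or without WT-tFCI replicate 2 (4.02, adjusted p = 0.063). Within batches 1 and 2 the differences of mean log2 CPM were 2.17 and 2.00, values that the prior count shrinks at such counts. In miKO the edgeR difference after tFCI was 0.90 (standard error 0.58, 95% interval -0.34 to 2.14, adjusted p = 0.228, Benjamini-Hochberg), and batches 1 and 2 gave -0.75 and 1.89. With miKO-Sham replicates 1 and 2 as 1 sample, *Lyz1* in miKO-Sham was at 7.60 ± 5.74 CPM (SD, n = 2), and the fitted differences were 7.58 against WT-Sham and 0.44 after tFCI (adjusted p = 0.493, edgeR, Benjamini-Hochberg).

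Set against *Lyz2*, *Lyz1* was a trace in every library. It took 0 of 5520 and 0 of 4304 lysozyme counts in WT-Sham replicates 1 and 3, which allows up to 0.0543% and 0.0697% by a limit of 3 counts (exact 95% upper bounds 0.0668% and 0.0857%), and 1 of 3952 in replicate 2 (0.0253%). Its share was 0.0344% to 0.108% in WT-tFCI, 0.026% to 0.165% in miKO-Sham and 0.0433% to 0.218% in miKO-tFCI. Within the miKO groups the share differed between libraries beyond counting error. It was 0.026% (exact 95% interval 0.0149 to 0.0423) in miKO-Sham replicate 2 against 0.165% (0.133 to 0.202) in replicate 3, and 0.0433% (0.0286 to 0.063) in miKO-tFCI replicate 1 against 0.218% (0.186 to 0.253) in replicate 3. Such intervals and limits cover counting error only. How many reads of one copy were placed on the other by the aligner was not tested.

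**Figure D2:**
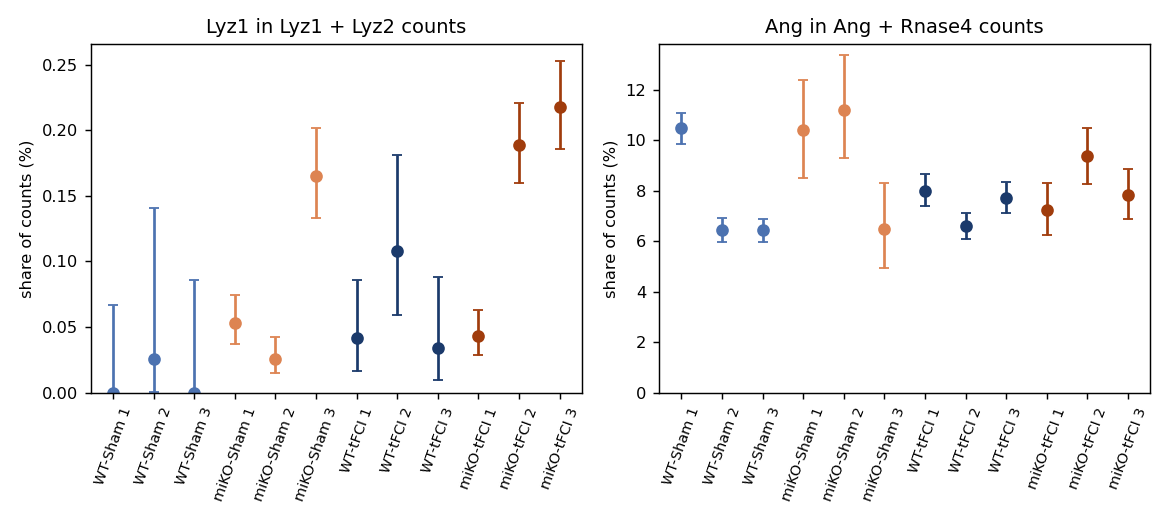
Share of *Lyz1* in the summed lysozyme counts (left) and of *Ang* in the summed *Ang* and *Rnase4* counts (right) in each library, in percent, with exact 95% binomial intervals. *Lyz1* stayed at or under 0.218% and differed between libraries of miKO, whereas *Ang* took 6.43% to 11.2% in all 12 libraries.

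*Rnase4* was an abundant RNA of WT microglia and far lower in miKO. It was at 1112, 1091 and 1080.2 CPM in WT-Sham replicates 1 to 3 and at 122, 121 and 105 CPM in miKO-Sham. After tFCI it was at 795, 956 and 847 CPM in WT and at 243, 303 and 337 CPM in miKO. No library of any group overlapped another group, with WT-Sham highest, then WT-tFCI, miKO-tFCI and miKO-Sham. How many of all tested genes separate likewise was not counted, and the genotype separation belongs to the values that chose the gene. By counts, its rank in the library was 83 to 87 in WT-Sham, 100 to 127 in WT-tFCI, 410 to 527 in miKO-tFCI and 1394 to 1613 in miKO-Sham.

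*Rnase4* rose after tFCI in miKO, whereas its difference in WT did not pass the threshold. In miKO it went from 116 ± 9.37 to 294 ± 47.4 CPM (SD, n = 3), which is 1.33 on the log2 scale (standard error 0.14, 95% interval 1.02 to 1.64, adjusted p = 7.21e-06, edgeR, Benjamini-Hochberg), and batches 1 and 2 gave 0.99 and 1.50. In WT it was at 1094 ± 16.0 CPM after Sham and 866 ± 82.0 CPM after tFCI (SD, n = 3). That difference was -0.34 (standard error 0.14, 95% interval -0.64 to -0.04 before adjustment over genes, adjusted p = 0.0681, edgeR, Benjamini-Hochberg), although all WT-tFCI libraries were below all WT-Sham libraries. The genotype difference, which served to choose the gene, was -3.23 without stroke (standard error 0.15, 9.41-fold lower in miKO) and -1.56 after tFCI (standard error 0.14, 2.95-fold lower). It was -3.18 and -3.26 within batches 1 and 2 without stroke, and -1.71 and -1.49 after tFCI. With miKO-Sham replicates 1 and 2 as 1 sample, *Rnase4* in miKO-Sham was at 113 ± 11.4 CPM (SD, n = 2), and the differences were -3.22 against WT-Sham and 1.32 after tFCI (adjusted p = 5.17e-05, edgeR, Benjamini-Hochberg).

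*Ang* followed *Rnase4* at a lower level. It was at 129.8, 75.3 and 74.2 CPM in WT-Sham and at 14.2, 15.3 and 7.30 CPM in miKO-Sham. In WT-tFCI it was at 69.2, 67.5 and 70.9 CPM, and miKO-tFCI had 19.0, 31.3 and 28.7 CPM. The groups stood in the same order as for *Rnase4* and none overlapped, although WT-Sham replicates 2 and 3 were close to WT-tFCI. In miKO *Ang* rose after tFCI from 12.2 ± 4.31 to 26.3 ± 6.48 CPM (SD, n = 3), or 1.12 on the log2 scale (standard error 0.28, adjusted p = 0.00492, edgeR, Benjamini-Hochberg), and batches 1 and 2 gave 0.42 and 1.48. In WT the difference of -0.41 did not pass the threshold (standard error 0.25, 95% interval -0.94 to 0.12, adjusted p = 0.21, edgeR, Benjamini-Hochberg). Against WT, *Ang* was lower in miKO by 7.55-fold without stroke (log2 fold change -2.92, standard error 0.28) and by 2.62-fold after tFCI (-1.39, standard error 0.26), which again is a description. Within batches 1 and 2 these differences were -3.17 and -2.79 without stroke, and -1.85 and -1.20 after tFCI. With miKO-Sham replicates 1 and 2 as 1 sample, *Ang* in miKO-Sham was at 11.0 ± 5.24 CPM (SD, n = 2), the difference from WT-Sham was -3.06 and the rise after tFCI was 1.29 (adjusted p = 0.0048, edgeR, Benjamini-Hochberg).

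Of the 4 genes, *Lyz2* was called higher after tFCI in WT, as was *Lyz1*, which entered the test through the miKO groups alone. None was lower, where 20.9% of all tested genes were higher and 11.7% lower at the same thresholds (adjusted p under 0.05 and absolute log2 fold change above 0.58). In miKO-tFCI against miKO-Sham, *Rnase4* and *Ang* were higher and none was lower, where 21.9% of all tested genes were higher and 13.9% lower. In the genotype comparisons that chose the genes, 8.58% of all tested genes were higher and 6.8% lower in miKO-Sham, and 4.08% were higher and 4.71% lower in miKO-tFCI. The median log2 fold change of all tested genes lay between 0.02 and 0.04 in these 4 comparisons.

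**Figure D3:**
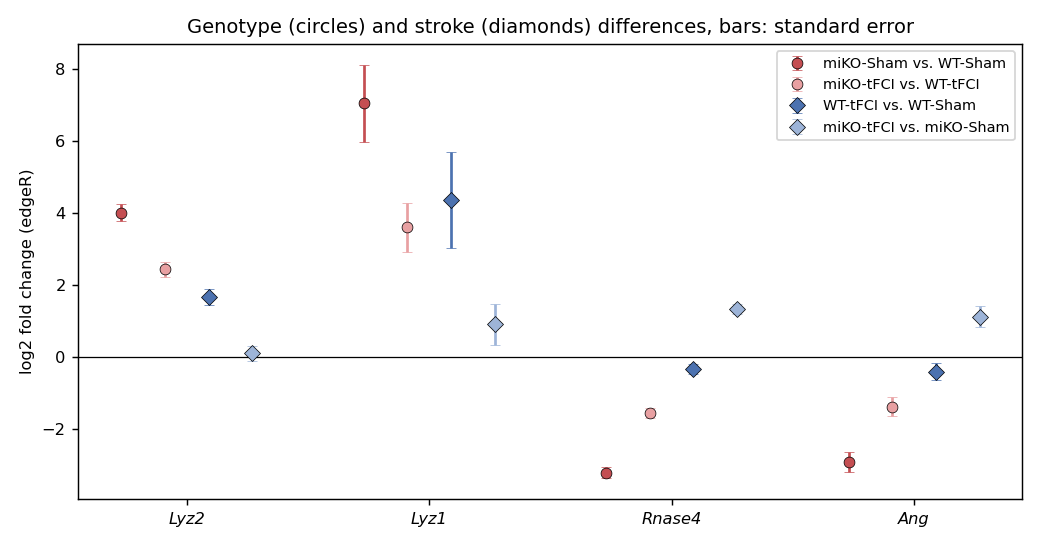
Log2 fold change of each gene with its standard error from edgeR, for the genotype differences (circles) and the tFCI differences (diamonds). *Lyz2* rose by 1.67 after tFCI in WT and had 0.10 in miKO, whereas *Rnase4* had -0.34 in WT and rose by 1.33 in miKO.

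The fitted difference between genotypes was smaller after tFCI than without stroke for each of the 4 genes, for *Lyz1* on 1 count in WT-Sham. The genotype difference after tFCI minus that without stroke was -1.58 for *Lyz2* (standard error 0.30), -3.46 for *Lyz1* (1.52), 1.67 for *Rnase4* (0.20) and 1.53 for *Ang* (0.37), on the log2 scale. Within batches 1 and 2 it was -2.10 and -1.38 for *Lyz2*, 1.47 and 1.77 for *Rnase4*, and 1.32 and 1.59 for *Ang*. For *Lyz1* it was -2.92 in batch 1 and -0.11 in batch 2, as differences of mean log2 CPM that the prior count shrinks. The edgeR fit of batch 2 alone gave -2.51, and the fitted values of *Lyz1* depend on the prior count. These values come from the libraries that chose the genes and carry no test. *Lyz2* differed by 1.67 between the WT groups and by 0.10 between the miKO groups, while for *Rnase4* the differences were -0.34 and 1.33.

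The share of *Ang* overlapped between all groups, although these differed several-fold in level. *Ang* made up 7.78 ± 2.32% of the summed counts of both genes in WT-Sham, 9.36 ± 2.53% in miKO-Sham, 7.44 ± 0.744% in WT-tFCI and 8.15 ± 1.10% in miKO-tFCI (SD, n = 3). Single libraries differed beyond counting error, with 10.5% (exact 95% interval 9.87 to 11.1) in WT-Sham replicate 1 and 6.43% (5.98 to 6.89) in replicate 3.

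Per length, *Rnase4* was above *Lyz2* in WT-Sham and below it in the other groups. In WT-Sham, *Rnase4* was at 772 ± 11.3 CPM per kb of exon (exon bases not shared with another gene) and *Lyz2* at 392 ± 97.1 (SD, n = 3). In miKO-Sham, *Rnase4* was at 81.9 ± 6.61 and *Lyz2* at 6252 ± 798 CPM per kb. The ratio of *Lyz2* to *Rnase4* was 0.507 ± 0.118 in WT-Sham, 2.07 ± 0.570 in WT-tFCI, 31.5 ± 3.60 in miKO-tFCI and 76.1 ± 3.94 in miKO-Sham (SD, n = 3). The 4 groups did not overlap in this ratio, which combines values that chose the genes. On the same scale *Ang* was at 94.7 and 12.5 CPM per kb in WT-Sham and miKO-Sham, and *Lyz1* at 0.0296 and 4.94.

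**Figure D4:**
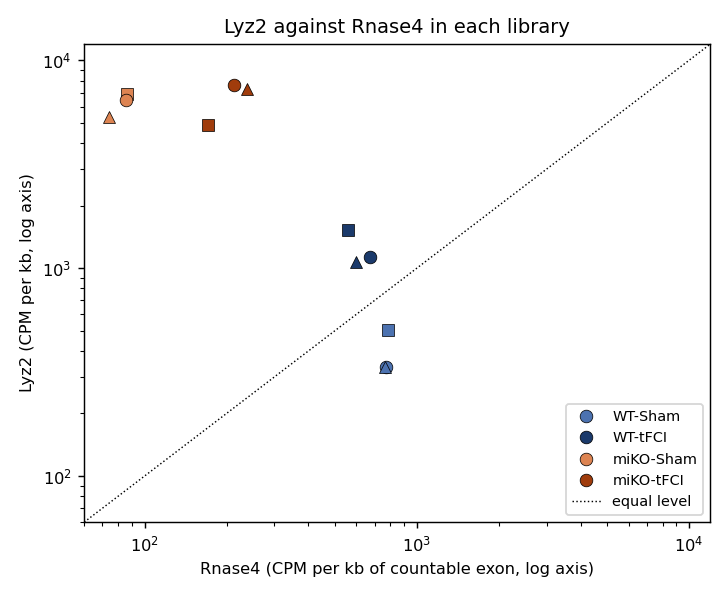
*Lyz2* against *Rnase4* in each of the 12 libraries, both as CPM per kb of countable exon on log axes, with the dotted line at equal level. The WT-Sham libraries lay below the line and the other groups above it, from a ratio of 0.437 at the lowest to 80.1 in miKO-Sham.

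In bulk libraries such as these, fewer cells of a type and less RNA per cell cannot be told apart, and markers of other cells are therefore given beside the lysozymes. Monocytes and neutrophils are rich in *Lyz2*. The 12 listed genes of monocytes and macrophages summed to 61.7 to 161 CPM in WT-Sham, 167 to 310.2 in miKO-Sham, 828 to 1389.9 in WT-tFCI and 1258 to 2636 in miKO-tFCI, and 3 of the 11 tested were higher in miKO-Sham and 6 in miKO-tFCI than in WT (median log2 fold changes 1.30 and 1.20). Of all tested genes 8.58% and 4.08% were higher in these comparisons, and 6.8% and 4.71% lower. After tFCI 20.9% of all tested genes were higher and 11.7% lower in WT, and 21.9% and 13.9% in miKO. For this and the following lists, each count stands against the share of its own comparison and direction. After tFCI 6 of 11 monocyte genes rose in WT and 8 of 11 in miKO. *Ccr2*, the chemokine receptor of inflammatory monocytes, was at 6.10 CPM in WT-Sham and 7.34 in miKO-Sham (log2 fold change 0.46, adjusted p = 0.62), and at 9.31 in WT-tFCI and 38.9 in miKO-tFCI (2.16, adjusted p = 0.0149, edgeR, Benjamini-Hochberg). *Ly6c2*, the Ly6C antigen, was at 6.83 and 11.5 CPM in the Sham groups (2.28, adjusted p = 0.0653) and at 8.68 and 30.2 CPM in the tFCI groups (2.16, adjusted p = 0.0743). The 3 called higher in miKO-Sham were *Ifitm3* (24.3 to 92.1 CPM, 2.12, adjusted p = 4.57e-05), *Itga4* (1.30, adjusted p = 0.0156) and *Vim* (1.05, adjusted p = 0.0191, edgeR, Benjamini-Hochberg). The other 8 tested were not called there. Without miKO-tFCI replicate 1, which held 75.9 CPM of *Ccr2*, 2 of 11 monocyte genes were higher in miKO-tFCI, and the genotype difference of *Lyz2* after tFCI was 2.71. With miKO-Sham replicates 1 and 2 as 1 sample, 1 of 11 was higher in miKO-Sham, and that of *Lyz2* without stroke was 3.94.

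The 12 listed neutrophil genes summed to 637 to 1361 CPM in WT-Sham, 1117 to 1136 in miKO-Sham, 528 to 592 in WT-tFCI and 988 to 1294 in miKO-tFCI, and 1 of the 10 tested was higher in miKO-Sham and 6 in miKO-tFCI (medians 0.44 and 2.27). After tFCI 1 rose and 1 fell in WT, and 4 rose and 1 fell in miKO. By group means *Csf3r* was the largest part of these sums outside miKO-tFCI, at 565 CPM in WT-Sham, 764 in miKO-Sham and 352 in WT-tFCI. It was at 261 CPM in miKO-tFCI and was the gene that fell in WT and in miKO. The sums therefore do not show the course of the other listed neutrophil genes. The alarmin subunit *S100a8* was at 272, 21.5 and 13.9 CPM in WT-Sham replicates 1 to 3, and the same replicate 1 held the highest *Lyz2* of its group. In WT-tFCI, by contrast, replicate 1 held the highest *Lyz2* (2010.3 CPM) and the lowest *S100a8* (54.9 CPM). In miKO-Sham *S100a8* was at 70.4 to 111 CPM, below WT-Sham replicate 1 and above WT-Sham replicates 2 and 3 (log2 fold change 0.36, adjusted p = 0.787, edgeR, Benjamini-Hochberg). After tFCI *S100a8* was at 61.0 ± 5.31 CPM in WT and 298 ± 34.5 CPM in miKO (SD, n = 3), without overlap. It was called higher in miKO-tFCI (2.30, adjusted p = 0.0422, edgeR, Benjamini-Hochberg). *Ly6g* and *Stfa2l1*, which define neutrophils, reached 6 and 9 counts at most in any library. Of the 10 genes of border-associated macrophages, 3 were higher in miKO-Sham and 4 in miKO-tFCI, while 3 rose after tFCI in WT and 7 in miKO, and they summed to 584 to 721, 1429 to 1686, 733 to 1059 and 1060.4 to 2222 CPM in the WT-Sham, miKO-Sham, WT-tFCI and then miKO-tFCI libraries. Among them the scavenger receptor *Stab1* went from 511 to 1381 CPM in miKO-Sham (1.43, adjusted p = 0.000832, edgeR, Benjamini-Hochberg). *Folr2*, a folate receptor, and *Ms4a7* were also higher in miKO-Sham (2.65 and 1.43, adjusted p = 7.93e-07 and 0.000273) and in miKO-tFCI (1.22 and 1.63, adjusted p = 0.00079 and 0.000166, edgeR, Benjamini-Hochberg). *Mrc1*, *Cd163* and *Lyve1* had -0.15, 0.05 and 0.13 in miKO-Sham (adjusted p = 0.884, 0.966 and 0.929) and 1.04, 1.80 and 1.63 in miKO-tFCI (adjusted p = 0.205, 0.0445 and 0.139, edgeR, Benjamini-Hochberg), where *Cd163* was called. The part of such cells in the lysozyme levels was not tested.

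Summed markers of the labelled cell type were higher in the Sham groups than in the tFCI groups and lowest in miKO-tFCI. The 12 listed genes summed to 30589 to 40804 CPM in WT-Sham and 28543 to 34476 in miKO-Sham. After tFCI they summed to 21512 to 23905 CPM in WT and 10809 to 21011 in miKO. All 12 listed microglial genes passed the filter, and *Csf1r*, the receptor on which microglia depend for survival, was at 7221 CPM in WT-Sham, 7763 in miKO-Sham, 4672 in WT-tFCI and 3719 in miKO-tFCI. In miKO-Sham 5 of the 12 were lower than in WT-Sham and 1, *Fcrls*, was higher, and in miKO-tFCI 6 were lower than in WT-tFCI. After tFCI 9 of 12 fell in WT and 12 of 12 in miKO, where *Rnase4* rose. Of the lower genes *Cx3cr1* itself carries the CreER insertion. The astrocyte markers summed to 114 to 631 CPM over all libraries, the endothelial ones to 14.1 to 453, the oligodendrocyte ones to 150.2 to 296 and the neuronal ones to 2.67 to 18.1. Of them 8 of 8 endothelial, 7 of 8 astrocyte, 5 of 7 oligodendrocyte and 2 of 4 neuronal genes rose after tFCI in miKO, as *Rnase4* and *Ang* did. In WT it was 6, 5, 5 and 1 genes, where *Rnase4* and *Ang* were at -0.34 and -0.41. Between miKO-Sham and WT-Sham 1, 2, 1 and 1 of these genes were higher and 1, 1, 1 and 0 lower, and between the tFCI groups 0, 3, 1 and 0 were higher and 0, 1, 0 and 0 lower by edgeR. DESeq2 called 1 endothelial and 0 neuronal genes higher in miKO-tFCI, and 6 and 0 were higher at an unadjusted p under 0.05. Several of these counts moved with single libraries. Without miKO-tFCI replicate 1, 1 of 8 astrocyte genes was higher and 1 of 8 oligodendrocyte genes lower in miKO-tFCI, and 0 of 5 neuronal genes rose after tFCI in miKO. With miKO-Sham replicates 1 and 2 as 1 sample, 1 of 5 neuronal genes rose there, and 3 of 8 endothelial and 2 of 8 oligodendrocyte genes were higher in miKO-tFCI. In miKO-Sham 0 of 8 astrocyte and 0 of 8 oligodendrocyte genes were then higher and 2 of 8 endothelial genes lower. The part of these cells in *Rnase4* and *Ang* was not tested.

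The ribonuclease genes of chromosome 14 form a cluster, and the other expressed ribonucleases there, *Rnase6* and *Rnase10*, were also lower in miKO-Sham than in WT-Sham. Within 200 kb of *Rnase4* and *Ang* lay 26 further genes, of which 8 passed the filter on low counts and 14 had at most 3 counts in every library. Of the 8, 4 were lower in miKO-Sham and 0 higher by edgeR, where 6.8% and 8.58% of all tested genes were, and DESeq2 gave the same 4 and 0 in number. At an unadjusted p under 0.05, 6 were lower and 0 higher. *Rnase6*, an antimicrobial ribonuclease of myeloid cells (chr14:51123908-51132187, 17.8 kb from the nearer of the pair), was at 21.0, 14.3 and 15.7 CPM in WT-Sham and at 3.19, 2.91 and 6.02 CPM in miKO-Sham, which gave -2.04 on the log2 scale (adjusted p = 0.000286, edgeR, Benjamini-Hochberg). After tFCI it was at 8.41 to 8.86 CPM in WT and at 3.64 to 6.81 CPM in miKO, without overlap, but that difference did not pass the threshold (-0.74, adjusted p = 0.138, edgeR, Benjamini-Hochberg).

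*Rnase6* and *Rnase4* differed in their values after tFCI. *Rnase6* fell in WT (log2 fold change -0.97, adjusted p = 0.0157), where *Rnase4* had -0.34, and had 0.33 in miKO (adjusted p = 0.438, edgeR, Benjamini-Hochberg), where *Rnase4* rose by 1.33. Whether the genes differed in these changes was not tested. *Rnase10* (chr14:51007751-51010758, 80.3 kb away), a ribonuclease known from the epididymis, had only 21, 24 and 17 counts in WT-Sham and 0, 0 and 4 in miKO-Sham. It was called lower in miKO-Sham (adjusted p = 0.0115) and in miKO-tFCI (0, 2 and 2 counts against 12, 10 and 20, adjusted p = 0.035, edgeR, Benjamini-Hochberg), the latter not without miKO-tFCI replicate 1.

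Of the remaining neighbours, *Pnp*, purine nucleoside phosphorylase, had -0.62 in miKO-Sham (adjusted p = 0.00767), and *Gm38316*, which overlaps it and cannot be told apart from it without strand, had -0.68 (adjusted p = 0.00286, edgeR, Benjamini-Hochberg). *Pip4p1* fell by 0.70 after tFCI in either genotype (adjusted p = 0.000617 in WT and 0.000571 in miKO), and *Pnp2* rose in miKO (1.51, adjusted p = 0.0222, edgeR, Benjamini-Hochberg), a call that was lost without miKO-tFCI replicate 1. *Osgep* and *Apex1* were not called in any comparison. When miKO-Sham replicates 1 and 2 were taken as 1 sample, 4 of 9 tested neighbours were lower in miKO-Sham.

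**Figure D5:**
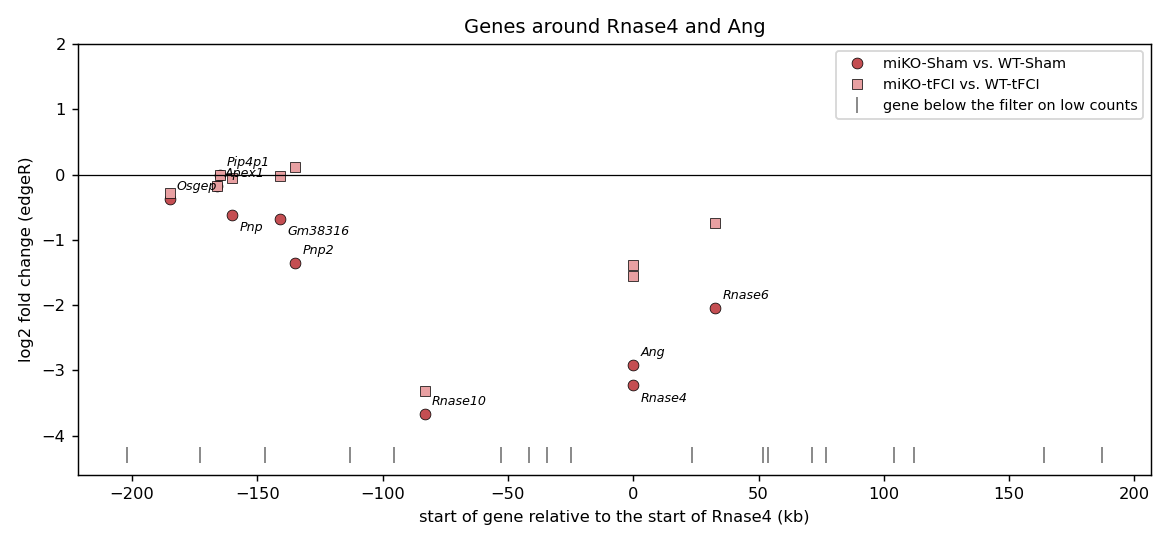
Log2 fold change of the genes tested around *Rnase4* and *Ang* against the distance of their start from that of *Rnase4* in kb, for miKO-Sham against WT-Sham (circles) and miKO-tFCI against WT-tFCI (squares), with grey ticks for genes below the filter. *Rnase6* at 32.8 kb and *Rnase10* at -83.3 kb had -2.04 and -3.67 without stroke, whereas *Pip4p1* at -165 kb had -0.01.

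Around the lysozymes, 3 of 12 neighbours within 200 kb passed the filter and 0 were called higher in miKO by edgeR or DESeq2 (at an unadjusted p under 0.05, 0 without stroke and 1 after tFCI). *Yeats4* was lower in miKO-Sham (-0.64, adjusted p = 0.0144) and *Frs2* fell after tFCI in WT (-0.59, adjusted p = 0.0194, edgeR, Benjamini-Hochberg), while *Cpsf6* was not called. Without miKO-tFCI replicate 1, 1 of the 3 was called higher in miKO-tFCI. Of 8 other lysozyme-like genes 1 passed the filter, *Lyzl4*, at 6.25 CPM in WT-Sham, 6.87 in miKO-Sham, 5.12 in WT-tFCI and 4.30 in miKO-tFCI, and it was not called in any comparison.

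In the wider RNase A family, 4 of 19 further genes passed the filter. In miKO-Sham *Rnase6* and *Rnase10* were lower and *Ear1* and *Ear2*, ribonucleases of eosinophils and macrophages, were higher (log2 fold changes 4.29 and 4.53, adjusted p = 0.0479 and 0.0271, edgeR, Benjamini-Hochberg). These copies are near-identical and their assignment is uncertain. *Ear1* had 8, 0 and 0 counts in WT-Sham, 10, 10 and 15 in miKO-Sham, 13, 0 and 0 in WT-tFCI and 116, 0 and 1 in miKO-tFCI, so that outside miKO-Sham it was found nearly in replicate 1 alone. Neither was called with miKO-Sham replicates 1 and 2 as 1 sample, and 1 of them was called without miKO-tFCI replicate 1.

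The partners of angiogenin were not called between genotypes. Of 9 genes for its inhibitor, its receptor and other enzymes that cut or modify RNA, 0 were called without stroke and 0 after tFCI by edgeR and by DESeq2 (median log2 fold changes 0.08 and 0.01), and 2 and 1 were higher at an unadjusted p under 0.05. *Rnh1*, the ribonuclease inhibitor, was at 149.7 CPM in WT-Sham, 151 in miKO-Sham, 253 in WT-tFCI and 326 in miKO-tFCI. It rose after tFCI in WT (0.76, adjusted p = 0.000362) and in miKO (1.09, adjusted p = 1.77e-05, edgeR, Benjamini-Hochberg), the only one of the 9 called in these comparisons (medians 0.25 and 0.17). *Plxnb2*, a receptor of angiogenin, had -0.51 after tFCI in miKO (adjusted p = 0.00667, edgeR, Benjamini-Hochberg), under the fold threshold. Without miKO-tFCI replicate 1, 1 of the 9 was also called lower after tFCI in miKO.

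Other antimicrobial genes were higher in miKO more often than lower. Of 21 tested, 6 of which are also in the neutrophil or monocyte lists, 7 were higher and 0 lower in miKO-Sham by edgeR (median 0.96), where 8.58% of all tested genes were higher and 6.8% lower. In miKO-tFCI 12 were higher and 0 lower (median 2.11), against 4.08% and 4.71% of all tested genes. These 12 included *S100a8*, *S100a9* and *Ltf* of the neutrophil list and *Chil3* of the monocyte list. The part of other cells in these counts was not tested. DESeq2 called 7 and 9 higher and 0 lower, and 0 and 1 were lower at an unadjusted p under 0.05. Counting miKO-Sham replicates 1 and 2 as 1 sample, 6 of 22 were higher in miKO-Sham. After tFCI 7 rose in WT (median 0.32), and 9 rose and 1 fell in miKO (median 1.23), or 2 fell without miKO-tFCI replicate 1 or with miKO-Sham replicates 1 and 2 as 1 sample. *Mpeg1*, the pore-forming perforin-2 of macrophages, resembled *Lyz2* in having its larger genotype difference without stroke (1.91, adjusted p = 0.000199, against 0.62, adjusted p = 0.163, edgeR, Benjamini-Hochberg). It was at 334 CPM in WT-Sham, 1255 in miKO-Sham, 586 in WT-tFCI and 897 in miKO-tFCI, and whether its genotype differences differed was not tested. *Slc11a1*, the phagosomal metal transporter NRAMP1, was higher in miKO-Sham by 1.60 and in miKO-tFCI by 1.22 (adjusted p = 8.09e-06 and 0.000297, edgeR, Benjamini-Hochberg). *Lgals3*, galectin-3, rose after tFCI in WT (5.44) and in miKO (5.36) and was higher in miKO by 2.22 and 2.14 (adjusted p = 6.38e-05 and 0.000124, edgeR, Benjamini-Hochberg).

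Of 8 transcription factors known to act on the myeloid lysozyme gene, 1 was called between genotypes, higher in miKO-Sham. Of all tested genes 8.58% were higher and 6.8% lower there, and 4.08% and 4.71% in miKO-tFCI. With miKO-Sham replicates 1 and 2 as 1 sample, 2 of 8 were higher in miKO-Sham. *Cebpa*, C/EBP alpha, was at 289, 167 and 157 CPM in WT-Sham and at 489, 480.2 and 274 CPM in miKO-Sham, with miKO-Sham replicate 3 inside the range of WT-Sham (log2 fold change 1.03, adjusted p = 0.0115, edgeR, Benjamini-Hochberg). *Cebpa* was at 132 CPM in miKO-tFCI against 127 CPM in WT-tFCI (0.06, adjusted p = 0.909, edgeR, Benjamini-Hochberg). It fell after tFCI in miKO (-1.63, adjusted p = 0.000213, edgeR, Benjamini-Hochberg). *Spi1* (PU.1), *Irf8* and *Runx1* also fell after tFCI in miKO (-0.70, -0.93 and -0.77), *Cebpb* rose after tFCI in WT and miKO (0.68 and 0.71), and *Cebpd* fell in WT (-0.62), where 2 of the 8 were lower without miKO-tFCI replicate 1. After tFCI 1 of the 8 was higher and 1 lower in WT, where 20.9% and 11.7% of all tested genes were. In miKO 1 was higher and 4 lower, where 21.9% and 13.9% of all tested genes were. The medians over the 8 were 0.29 in miKO-Sham and -0.11 in miKO-tFCI against WT, and -0.29 and -0.46 after tFCI in WT and miKO. The part of these factors in the lysozyme levels was not tested.

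Across the 12 libraries, with the batch difference removed from log2 CPM, the genes of each pair varied together. Pearson's r was 0.976 between *Rnase4* and *Ang* and 0.939 between *Lyz1* and *Lyz2*, while it was -0.879 between *Lyz2* and *Rnase4* and -0.839 between *Lyz2* and *Ang*. These coefficients describe 4 groups of 3 libraries that differ in genotype and surgery, and they carry no test. Among 9318 genes with a mean of at least 10 CPM, *Rnase4* was the gene most like *Ang*, followed by *Kidins220* (0.967), *Kdm7a*, *Pbx3* and *Tmem37* (0.951 to 0.955). Most like *Rnase4* were *Rac3* (0.982), *Hjurp* (0.980), *Tnfrsf13b* and *Slco4a1* (each 0.978), with *Ang* at the fifth place. *Tnfrsf13b*, the TACI receptor, had -3.65 in miKO-Sham and -1.94 in miKO-tFCI. *Bin3* was the most opposite to both ribonucleases (-0.980 and -0.956).

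Most like *Lyz2* were *Taldo1* (0.990), the transaldolase of the pentose phosphate pathway, *Lipa* (0.985), the lysosomal acid lipase, *Capzb* (0.984), *A530064D06Rik* (0.983) and *Timp2* (0.980). *Lipa* had 1.74 in miKO-Sham and 0.99 in miKO-tFCI against WT, and 0.82 and 0.06 after tFCI in WT and miKO, where *Lyz2* had 4.01, 2.43, 1.67 and 0.10. Most opposite to *Lyz2* was *Upk1b* (-0.985). For *Lyz1*, whose low counts limit such a measure, they were *Gm15884* (0.963), *Gm16286* (0.959), *Coq3* (0.946), *Alas1* and *Capzb* (each 0.943), with *Jup* most opposite (-0.979).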

How the data were processed

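RNA of sorted microglia was sequenced in 12 libraries (SMART-Seq v4, 10 ng of RNA, paired reads of 150 bases). Per the submitters' processing notes, the tools were FastQC 0.11.9, Trim Galore, HISAT2 2.2.1, SAMtools and HTSeq 1.99.2 on GRCm38.p6. The values deposited by the authors are raw counts per Ensembl gene, not normalized. The kit does not mark strand. Lines that name no gene (61.5 to 69.3% of the counted reads) were left out of library sizes and tests, and 55141 of 55401 identifiers were matched to GENCODE M21. Counts on genes per library limit the precision, and intervals cover counting error only, since reads carried no molecular identifiers.

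From these counts, genes were filtered with filterByExpr, scaled by TMM and fitted with edgeR 4.0.16 in R 4.3.3 (quasi-likelihood test, group and batch as terms, all 12 libraries, Benjamini-Hochberg adjustment over 16451 genes). Calls needed an adjusted p below 0.05 together with a log2 fold change beyond 0.58 in either direction. Standard errors were derived from the fold change and its F statistic. The test was checked on simulated counts. DESeq2 1.42.0, other filters and scalings, single batches and left-out libraries were tried as alternatives. The study's own processing used DESeq2. Biopython 1.88 aligned the lysozyme transcripts. Promoters came from RefSeq (GRCm38.p6), and all 4 genes were matched.

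The 4 genes and all gene lists were chosen with earlier results of these data known. Named were *Hdac3*, the 4 genes, called members of the lists (the 4 most abundant where more than 6 were called), tested neighbours within 200 kb and the 5 genes most like each of the 4, with the most opposite one. *Lyzl4*, *Plxnb2*, *Ccr2*, *Ly6c2*, *Itga4*, *Ly6g*, *Stfa2l1*, *Mrc1*, *Cd163* and *Lyve1* fall outside this rule and were named after their values were seen. Replicate numbers come from the labels. The correlation of deviations between same-numbered libraries was over 0.1 in 11 of 18 pairs (-0.06 to 0.67). Whether the numbers pair samples is not given, and a fit with the number as a block was run as an alternative. The values of 1 listed marker gene are not reported here.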

Additional observations from a re-analysis of the deposited data

Results flagged for a closer look

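The difference between tFCI and Sham had opposite signs in the genotypes for both ribonucleases. For *Rnase4* the log2 fold change was -0.34 in WT and 1.33 in miKO, and for *Ang* it was -0.41 in WT and 1.12 in miKO. Every WT-tFCI library lay below every WT-Sham library and every miKO-tFCI library above every miKO-Sham library. For *Ang* in WT the gap was small (70.9 against 74.2 CPM), and its difference was -0.10 without WT-Sham replicate 1 and in batch 2 alone. How many of all tested genes separate in this way was not counted, and the ribonuclease genes share exon bases. The difference between genotypes was not tested here, because it served to choose the genes, and the WT values alone did not pass the threshold.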

How the results depend on the processing

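The tested tFCI differences of *Rnase4* and *Ang* kept their direction and their call in the 22 alternatives run, and their untested genotype differences and interactions kept their direction and moved by less than 1 SD between replicates (22 and 21 alternatives). The rise in miKO ranged from 1.21 to 1.47 for *Rnase4* and from 0.85 to 1.40 for *Ang* (highest adjusted p 0.000567 and 0.0257), and that of *Lyz2* in WT from 1.54 to 1.84 (highest 0.000403). The *Rnase4* difference in WT ranged from -0.45 to -0.26 (adjusted p 0.0111 to 0.201) and that of *Ang* from -0.58 to -0.10 (0.0593 to 0.791). All p are from edgeR or DESeq2 with Benjamini-Hochberg adjustment. The *Lyz2* difference in miKO turned to -0.05 and -0.04 without miKO-tFCI replicate 2 or 3 (range -0.05 to 0.35 over left-out libraries). Its genotype difference after tFCI ranged from 2.29 to 2.71, and the interaction from -1.80 to -1.30.

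*Lyz1*, limited by its counts, was least stable. Its rise in WT was 3.98 in batch 2 alone (adjusted p = 0.0573, edgeR) and 3.65 to 5.96 with 1 library left out. Its genotype difference without stroke ranged from 6.37 to 8.68 with 1 library left out, and its interaction from -5.11 to -2.79 and was -2.51 in batch 2 alone. Summed with *Lyz2*, both lysozymes gave 4.01, 2.43 and -1.58 for the genotype differences without stroke and after tFCI and for the interaction. With at least 10 counts required in every library *Lyz1* had no value, and with only the WT groups in the fit its tFCI difference in WT had none. The cause was not tested.

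With the replicate number as a block in place of batch, no call on the 4 genes changed (*Rnase4* 1.33 and *Ang* 1.13 in miKO, *Lyz2* 1.67 and *Lyz1* 4.39 in WT), and called genes moved from 5365, 5887, 2530 and 1446 to 5325, 5871, 2490 and 1429 in the order WT tFCI, miKO tFCI, genotype without stroke and genotype after tFCI. Of the 12 libraries, 7 correlated best with their own number. The count for the genotype after tFCI was 2193 without a filter, 701 without batch, 2535 with only the groups compared, and 700, 616 and 917 without WT-tFCI replicate 2, WT-tFCI replicate 3 and miKO-tFCI replicate 3. The share of higher calls in it was 46.4%, against 30.4% without batch and 60.8% with only the groups compared. With at least 10 counts in every library 3744 genes were called for tFCI in miKO. The list counts without miKO-tFCI replicate 1 and with miKO-Sham replicates 1 and 2 summed were chosen after seeing the data.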
